A study of Mus musculus with 6 samples.

Results

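The mouse mitochondrial genome carries 13 mRNA genes, 22 tRNA genes and 2 rRNA genes, and these 37 genes are described here by class and by annotated strand. They are every entry on chromosome MT of a deposited table of 54532 gene entries. That rule uses no measured value, but it was chosen with earlier results of these data known. RNA came from RAW264.7, an established mouse macrophage cell line grown for 3 days. The C/D group (3 libraries) was cultured with the composite GelMA/PEDOT:PSS+PLLA/PDA under dynamic conditions, that is with low-frequency ultrasound at 48 kHz for 5 min, and the Gel/S group (3 libraries) with GelMA alone under static conditions. GelMA is a gelatin-based hydrogel and PEDOT:PSS a conducting polymer. The material and the ultrasound changed together, so their effects cannot be told apart. The columns of the table that carry the letters US were read as ultrasound and therefore as C/D, which the labels do not spell out, and every direction below rests on that reading. The labels do not say that libraries of a group came from separate cultures, so p-values measure the spread between these libraries, which may be technical. The title of the series names mitochondrial transfer and mitochondrial metabolism in immune regulation of bone repair, which is the setting in which mitochondrial transcripts are of interest.

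Mammalian mitochondrial DNA is transcribed from both strands into long RNAs that span many genes. The tRNAs lie between the mRNAs and rRNAs, and cutting at their ends releases the mature RNAs. The mRNAs encode subunits of the respiratory chain complexes and of ATP synthase, the rRNAs form the mitochondrial ribosome, and the tRNAs decode its mRNAs. Most mRNAs, both rRNAs and most tRNAs are annotated on the + strand. The - strand holds mt-Nd6, the only mRNA there, and 8 tRNAs. Whether the authors' counting used strand was not given in the sources used here. Strand therefore means the annotated strand of a gene, and reads of a gene and of RNA from the opposite strand at the same place cannot be told apart.

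The libraries held 12818831, 15802627 and 14909268 counts in C/D, against 15896779, 16525699 and 15579679 counts in Gel/S. All 8 macrophage markers were found, with a summed level of 9840 to 9955 FPKM (fragments scaled to gene length and library size, as deposited) in C/D and 11869 to 12719 FPKM in Gel/S. Most of this sum was Lyz2, at 7922 to 8085 FPKM in C/D and 9627 to 10754 FPKM in Gel/S. The defining stromal genes Col1a2, Col3a1, Dcn, Lum and Cxcl12 were listed at 0 in every library, and the 8 stromal markers summed to 0.713 to 0.777 FPKM in C/D and 0.768 to 0.923 FPKM in Gel/S. The 4 osteoblast markers summed to 0.137 to 0.201 FPKM in C/D and 0.125 to 0.239 FPKM in Gel/S, with Bglap and Ibsp listed at 0. The 4 osteoclast markers summed to 19.9 to 24.9 FPKM in C/D and 13.9 to 16.02 FPKM in Gel/S, with Calcr listed at 0 and Acp5 making up most of the sum. The part of the marker differences in the results below was not tested.

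The sequences that bear on how the genes can be counted are shown first, from GENCODE M21 transcripts (GRCm38), written 5′ to 3′ along the gene. The 3′ ends of mt-Nd5 (+ strand) and mt-Nd6 (- strand) overlap by 14 bases, in capitals here, at chrMT:13552-13565, and are the only mRNA ends that meet from opposite strands.
mt-Nd5, chrMT:13526-13565: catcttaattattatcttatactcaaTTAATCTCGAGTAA
mt-Nd6, chrMT:13552-13591: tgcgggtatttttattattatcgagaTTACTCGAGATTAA
The overlap is short beside the 1824 bases of mt-Nd5 and the 519 bases of mt-Nd6. On the same strand, mt-Atp8 and mt-Atp6 share 43 bases and mt-Nd4l and mt-Nd4 share 7.

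The tRNAs that later pass the test, with mt-Te for contrast, are short genes, with the anticodon in capitals. They decode proline (mt-Tp), asparagine (mt-Tn), cysteine (mt-Tc), tryptophan (mt-Tw) and glutamate (mt-Te). Of these only mt-Tw is on the + strand.
mt-Tp, chrMT:15356-15422: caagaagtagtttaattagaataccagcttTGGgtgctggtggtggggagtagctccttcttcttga
mt-Tn, chrMT:5089-5159: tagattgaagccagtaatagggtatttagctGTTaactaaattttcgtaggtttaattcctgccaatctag
mt-Tc, chrMT:5192-5257: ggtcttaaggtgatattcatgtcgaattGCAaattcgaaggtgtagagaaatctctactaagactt
mt-Tw, chrMT:4950-5016: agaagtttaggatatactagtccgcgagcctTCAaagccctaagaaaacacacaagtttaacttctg
mt-Te, chrMT:14071-14139: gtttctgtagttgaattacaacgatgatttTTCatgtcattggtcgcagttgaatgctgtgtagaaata

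Part of the mitochondrial genome has a near-identical copy in the nuclear genome. Nuclear copies of mitochondrial DNA are a known feature of mammalian genomes. In GENCODE M21, 7 annotated pseudogenes match a mitochondrial gene at 99% identity or more over at least 50 bases, and all 7 lie on the - strand of chr1:24611535-24616197. The copies span 4663 bases there, and their matches span chrMT:6390-11042, a stretch of 4653 bases, in the same order and with spacing kept to within 1 base. This mitochondrial span is called the copied stretch below. Only annotated genes were compared, not the bases between them. No near-identical copy of mt-Atp8 or of the tRNAs inside the span was among them. The pairs below show 60 bases each, with differing bases in capitals. Those of mt-Nd3 and mt-Co3 come from the near-identical stretch, and that of mt-Cytb comes from a more diverged copy on chromosome 4, shown for contrast.
mt-Nd3, chrMT:9459-9518: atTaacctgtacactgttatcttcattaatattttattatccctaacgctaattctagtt
Gm28438, chr1:24613060-24613119: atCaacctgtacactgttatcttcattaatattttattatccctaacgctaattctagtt
mt-Co3, chrMT:8968-9027: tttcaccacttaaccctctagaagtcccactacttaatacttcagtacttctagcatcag
Gm28437, chr1:24613551-24613610: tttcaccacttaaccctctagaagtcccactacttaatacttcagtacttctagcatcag
mt-Cytb, chrMT:14687-14746: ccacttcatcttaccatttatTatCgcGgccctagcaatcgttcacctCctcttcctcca
Gm11410, chr4:80004531-80004590: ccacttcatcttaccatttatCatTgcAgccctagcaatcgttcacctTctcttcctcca
The mt-Nd3 pair differed at 1 base over 345 aligned bases and the mt-Co3 pair at 0 of 783. The mt-Cytb pair differed at 81 bases over 1142.

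Counts were low inside this stretch. The 6 mRNAs that lie wholly inside the copied stretch (mt-Co2, mt-Atp8, mt-Atp6, mt-Co3, mt-Nd3 and mt-Nd4l) had 8 to 4999 counts in any library. The 5 mRNAs wholly outside it (mt-Nd1, mt-Nd2, mt-Nd5, mt-Nd6 and mt-Cytb) had 19360 to 223256 counts. The pair that runs across its edges, mt-Co1 and mt-Nd4, had 58640 to 904365 counts. Per kilobase of gene, the mean count was 62.9 to 5198 inside the stretch and 53913 to 160493 outside it, so the ranges do not touch. The 5 tRNAs inside it (mt-Ts1, mt-Td, mt-Tk, mt-Tg and mt-Tr) had 0 to 5 counts in any library, and the 17 tRNAs outside it had 0 to 1682. Of the mRNAs inside, mt-Co2 and mt-Co3 encode subunits of cytochrome c oxidase, mt-Atp6 and mt-Atp8 subunits of ATP synthase, and mt-Nd3 and mt-Nd4l subunits of complex I. The part of the copy in these low counts was not tested, and the levels of genes in the stretch are uncertain.

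**Figure D1:**
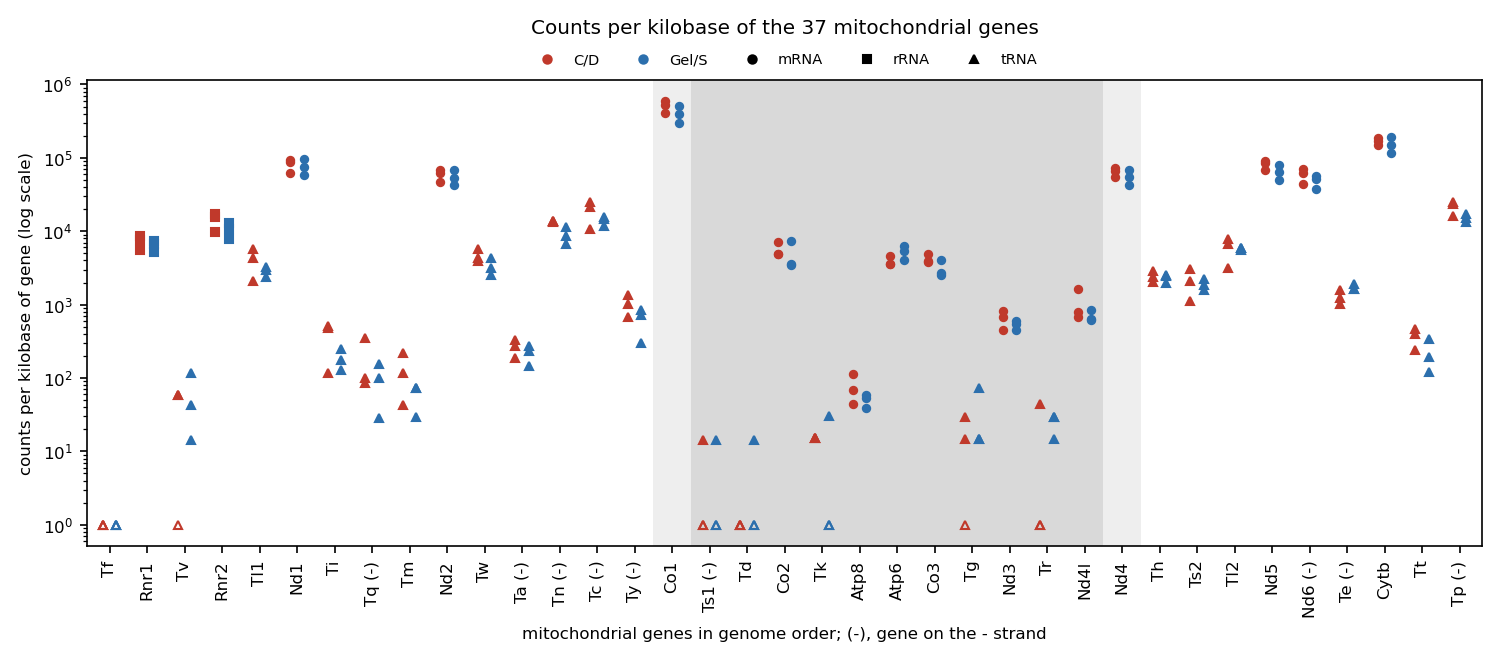
Counts per kilobase of gene (log scale) of the 37 mitochondrial genes in genome order, with C/D points left of Gel/S points and 1 point per library. Dark grey marks the genes inside the stretch spanned by the near-identical copies on chromosome 1, where mRNAs average 62.9 to 5198 counts per kilobase. Light grey marks mt-Co1 and mt-Nd4, which run across its edges. Open symbols at 1 are counts of 0.

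The nuclear copies held many counts themselves. Of the counts of mt-Nd3 and its copy Gm28438 together, 90.4%, 89.2% and 90.04% were on the copy in C/D, against 89.8%, 89.9% and 89.6% in Gel/S. The share was nearly constant across libraries. For mt-Nd4l and Gm10222 it was 60.2%, 52.1% and 63.6% in C/D, against 61.3%, 64.5% and 64.7% in Gel/S. The mt-Atp6 copy Gm10925 held 58.5%, 52.01% and 51.8% in C/D, against 35.8%, 59.5% and 31.5% in Gel/S, where C/D was higher than Gel/S libraries 1 and 3 and lower than library 2. The mt-Co3 copy Gm28437 held 43.8%, 50.5% and 46.3% in C/D, against 52.4%, 53.4% and 50.8% in Gel/S. The groups were apart by a narrow margin, between C/D library 2 and Gel/S library 3. The mt-Co2 copy Gm28661 held 35.6%, 39.3% and 27.5% in C/D, against 42.9%, 48.0% and 39.7% in Gel/S. These were again apart by a narrow margin between the same libraries, and differences in copy share were not tested. The copies of mt-Co1 and mt-Nd4, which match only part of the gene, held 0.281% to 0.525% and 0.825% to 1.19%. With its copy added, mt-Co2 had 3965 to 9619 counts in any library, and mt-Co1 with its copy had 457494 to 906916, not scaled to gene length. Any reads left out of both gene and copy would not show in such sums. How reads with several matches were counted was not given, and the part of the copy in these levels was not tested. The more diverged copies took few reads. Gm11410, 92.9% identical to mt-Cytb, had 0 counts in every library, and Gm13340, 97.6% identical to mt-Co1, had 301, 130 and 110 counts in C/D, against 63, 94 and 63 in Gel/S.

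**Figure D2:**
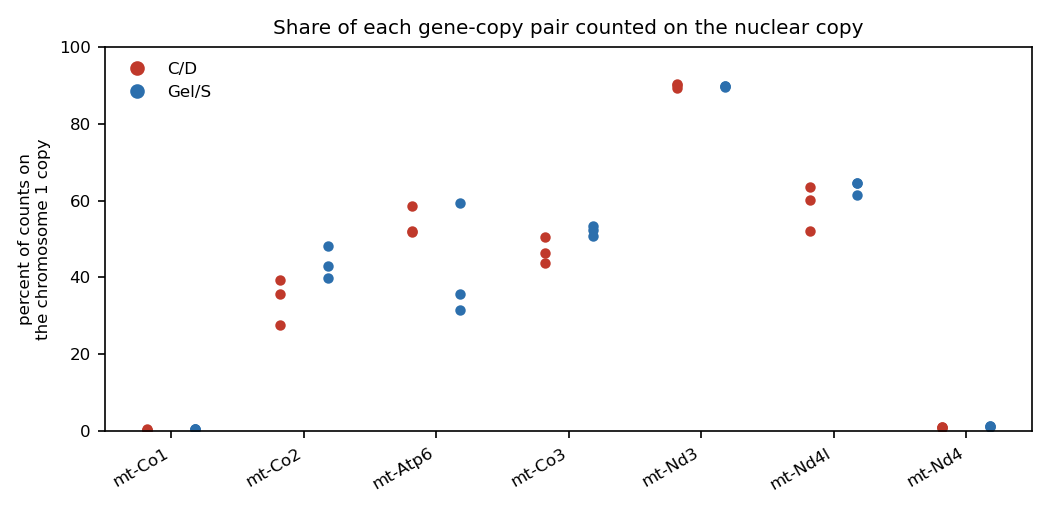
Percent of the counts of a mitochondrial gene and its near-identical copy on chromosome 1 that were on the copy, 1 point per library, C/D left of Gel/S. The mt-Nd3 pair lies at 89.2% to 90.4% in all 6 libraries and the mt-Co1 pair at 0.281% to 0.525%.

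Levels per length ran over several orders of magnitude among mRNAs and rRNAs. In FPKM, averaged over the 6 libraries, mt-Co1 (the catalytic subunit of cytochrome c oxidase) was first at 29811, with a range of 18461 to 36399 that did not meet that of the next gene. The second was mt-Cytb (cytochrome b of complex III) at 10517, also apart from the next. The complex I mRNAs mt-Nd1 (5155), mt-Nd5 (4811), mt-Nd4 (3923), mt-Nd2 (3720) and mt-Nd6 (3526 FPKM) followed, and each overlapped its neighbour in this order. mt-Nd6 was thus close to the + strand complex I mRNAs that lie outside or across the copied stretch. The rRNAs came after all of these, at 806 FPKM for mt-Rnr2 (large subunit) and 446 FPKM for mt-Rnr1 (small subunit), and the libraries were made with a kit for mRNA. Then came mt-Co2 (341), mt-Atp6 (296), mt-Co3 (243), mt-Nd4l (56.4), mt-Nd3 (38.6) and mt-Atp8 (4.24 FPKM), all from the copied stretch.

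Mitochondrial transcripts took a larger part of the C/D libraries. Their share of library counts was 9.17%, 10.4% and 9.99% in C/D, with a mean of 9.84% ± 0.606, against 5.59%, 9.02% and 7.41% in Gel/S, with a mean of 7.34% ± 1.72 (SD, n = 3 each). The groups did not overlap, but Gel/S library 2 came within a small margin of C/D library 1, and Gel/S library 1 was well below the rest. The log2 ratio of the means was 0.42, and it was 0.26 without Gel/S library 1 and 0.60 without Gel/S library 2. Long intergenic RNAs (lincRNA) moved with the groups too, at 0.835% ± 0.0314 of counts in C/D and 0.580% ± 0.0286 in Gel/S (SD, n = 3 each), and their part was not tested. In bulk RNA, more mitochondrial RNA per cell and less of other RNA, or a change in which cells are present, cannot be told apart.

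Every class was higher on average in C/D. The 12 mRNAs of the + strand took 9.39% ± 0.538 of library counts in C/D and 7.01% ± 1.66 in Gel/S (SD, n = 3 each), without overlap. The mRNA of the - strand, mt-Nd6, took 0.210% ± 0.0274 in C/D and 0.157% ± 0.0306 in Gel/S, and its log2 ratio of 0.42 was that of the + strand mRNAs. The 2 rRNAs took 0.200% ± 0.0354 in C/D and 0.141% ± 0.0288 in Gel/S, with a log2 ratio of 0.50, but here the groups overlapped because C/D library 1 was low at 0.160%. The 8 tRNAs of the - strand took 0.0263% ± 0.00344 in C/D and 0.0173% ± 0.00253 in Gel/S, with a log2 ratio of 0.61 and no overlap. Most of this sum was mt-Tp, mt-Tc and mt-Tn. Their mean counts were 1444, 1251 and 965 of 3849 in C/D, against 1025, 927 and 634 of 2769 in Gel/S. The 14 tRNAs of the + strand took 0.00937% ± 0.00239 in C/D and 0.00722% ± 0.000542 in Gel/S, with a log2 ratio of 0.38 and overlapping groups. No p is given for these sums.

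**Figure D3:**
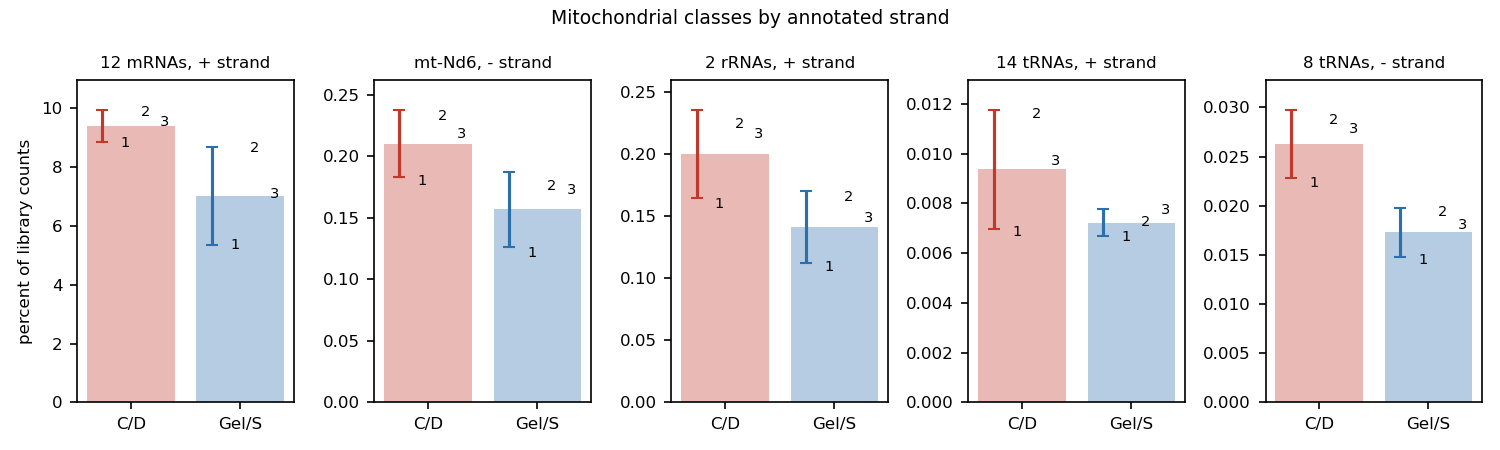
Percent of library counts in each class of mitochondrial gene by annotated strand, with C/D left of Gel/S. Bars are means, error bars are SD over 3 libraries and digits mark the replicate. The + strand mRNAs average 9.39% in C/D and 7.01% in Gel/S, and replicate 1 is the lowest of its group in each panel.

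The balance among classes overlapped between the groups. Of mitochondrial counts, mRNAs made up 97.6% ± 0.284 in C/D and 97.7% ± 0.123 in Gel/S, as mean ± SD over 3 libraries each. The rRNAs made up 2.03% ± 0.247 in C/D and 1.93% ± 0.0876 in Gel/S, and the tRNAs 0.361% ± 0.0376 in C/D and 0.340% ± 0.0417 in Gel/S. The - strand genes gave 2.40% ± 0.170 of mitochondrial counts in C/D and 2.40% ± 0.208 in Gel/S. Most of this was mt-Nd6, at 2.13% in C/D and 2.16% in Gel/S. Across the overlapping gene ends, mt-Nd6 had 18.4, 22.1 and 21.2 counts per 100 counts of mt-Nd5 in C/D, against 21.04, 19.8 and 22.9 in Gel/S, which overlapped. Within the rRNA class, mt-Rnr1 had 34.4, 30.3 and 29.1 counts per 100 counts of mt-Rnr2 in C/D, against 39.8, 34.9 and 37.6 in Gel/S. This ratio did not overlap, by a narrow margin between C/D library 1 and Gel/S library 2, with a log2 ratio of -0.26. A two-sided exact permutation test of 3 libraries against 3 cannot give a p below 0.1.

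Within the mitochondrial counts, the shares of some genes did not overlap between the groups, although none of the mRNAs named next passed an edgeR fit on this scale. mt-Co1 made up 54.4%, 55.3% and 55.1% in C/D, against 51.3%, 53.1% and 52.3% in Gel/S, and all C/D libraries were above all Gel/S libraries. mt-Cytb made up 14.4%, 13.1% and 12.98% in C/D, against 15.0%, 15.0% and 14.6% in Gel/S, and was lower in every C/D library. The complex I subunit mt-Nd1 was lower in the same way, at 5.42% ± 0.256 in C/D and 6.22% ± 0.113 in Gel/S, as was mt-Nd2, at 4.28% ± 0.150 in C/D and 4.83% ± 0.1003 in Gel/S (SD, n = 3 each). For mt-Cytb the groups were apart by a narrow margin, between C/D library 1 and Gel/S library 3. All shares add to 100% in a library, so a higher share of mt-Co1 leaves less for the rest. The lower shares are therefore not separate results from that of mt-Co1. Of the 33 tested members, 7 did not overlap on this scale, these 4 together with mt-Tn and mt-Tw (higher) and mt-Te (lower), 3 higher and 4 lower. Counted per mitochondrial count, 44.9% of all tested genes did not overlap, 2.14% higher and 42.8% lower. The mitochondrial share was higher in every C/D library, which lowers nuclear genes in C/D on this scale. These percentages are therefore not a like background for the members. In the edgeR fit scaled to mitochondrial counts, mt-Co1 was at log2 0.07 (adjusted p = 0.530), mt-Cytb at -0.14 (0.378), mt-Nd1 at -0.20 (0.298) and mt-Nd2 at -0.17 (0.396). That fit took in all tested genes, so differences between libraries in mitochondrial share enter the spread of nuclear genes. Its adjusted p-values draw on all these genes, so a member that did not pass may still differ in its share. Of the 33 members 0 rose and 2 fell in that fit, mt-Atp6 (log2 -0.78, adjusted p = 0.0189) and mt-Te (log2 -0.76, adjusted p = 0.0309). The share of mt-Atp6 overlapped, at 0.206%, 0.189% and 0.163% in C/D, against 0.406%, 0.183% and 0.371% in Gel/S. It lies in the copied stretch, and its copy held less of the pair in Gel/S libraries 1 and 3 than in C/D. The part of the copy in this call was not tested.

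Gene by gene, the direction was mostly upward in C/D, and 7 of the 33 tested members rose and 0 fell, while relative to mitochondrial counts 16 were positive and 17 negative. The test was edgeR's quasi-likelihood test over all 11707 genes with a mean level of at least 1 FPKM, with Benjamini-Hochberg adjustment and a threshold of 0.05, and log2 values are C/D over Gel/S. The 7 are 21.2% of the tested members, and 13.1% of all tested genes rose and 13.9% fell. The log2 value was positive for 28 members and negative for 5, with a median of 0.44 over the members and 0.01 over all genes tested. Among the 5, mt-Tv, mt-Tg and mt-Tr had at most 8, 5 and 3 counts in any library, so their signs are uncertain. Members shift together with the mitochondrial share of a library, so the signs are not 33 separate observations. At an unadjusted p under 0.05 there were 17 of the 33 members, and 41% of all tested genes were under it. The count of 7 depended on single libraries and on the tool, with 2 risen without Gel/S library 3, 3 without C/D library 2 and 19 without Gel/S library 2 (where 1 fell), and 12 in DESeq2 and 2 in limma on log2(FPKM + 1), which are mt-Tp and mt-Tn. In counts scaled to library size (CPM), 11 members did not overlap between the groups, all higher in C/D, and 22% of all tested genes did not overlap in that direction and 23.1% in the other. Of the 37, mt-Tf was at 0 counts in all libraries, which allows up to 3 counts per library, and mt-Ts1, mt-Td and mt-Tk had at most 2 counts, so these 4 were not tested.

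**Figure D4:**
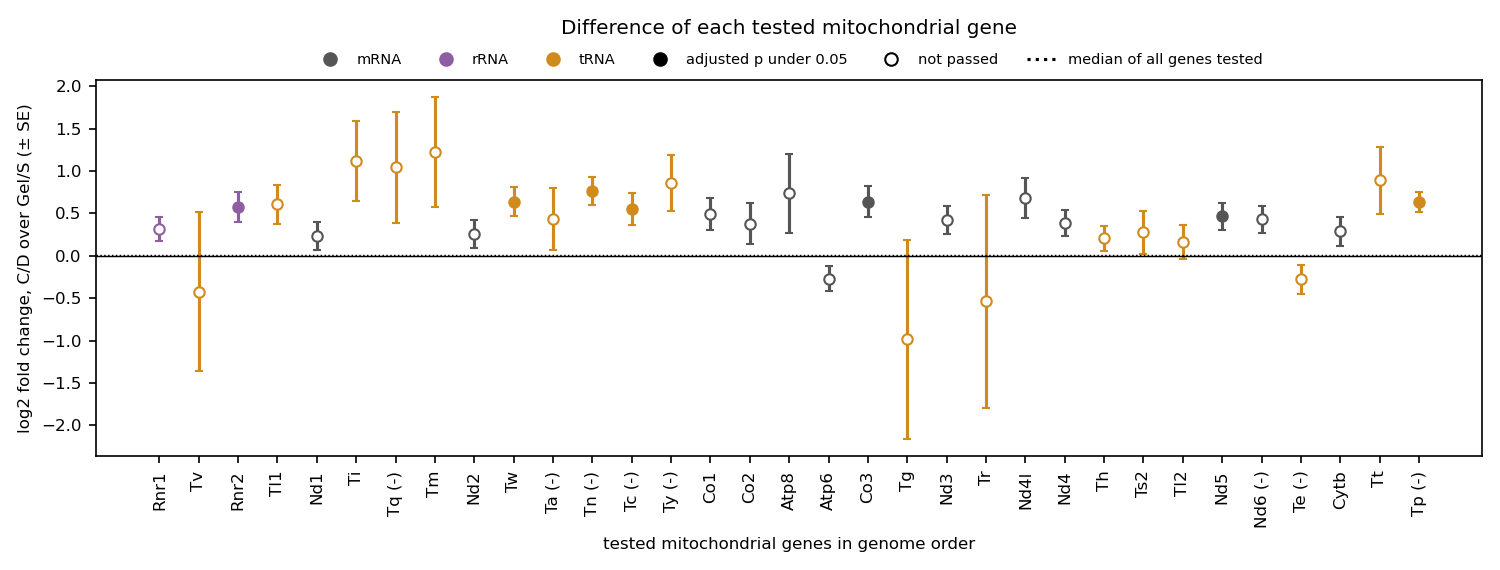
The log2 fold change of C/D over Gel/S with its standard error for the 33 tested mitochondrial genes in genome order, filled where the adjusted p was under 0.05 in edgeR. Of the 33, 28 lie above 0 and 7 are filled, and the wide errors belong to tRNAs with few counts, such as mt-Tg and mt-Tr.

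The tRNAs gave 4 of the 7, and 3 of these are on the - strand. mt-Tp (proline) had 84.1, 106 and 106 CPM in C/D, against 56.2, 70.0 and 65.8 CPM in Gel/S. It was the member with the smallest p, with a log2 value of 0.64 ± 0.119 (SE) and an edgeR adjusted p of 0.00327. mt-Tn (asparagine) had 73.4, 62.2 and 65.1 CPM in C/D, against 29.8, 49.6 and 39.2 CPM in Gel/S, a log2 value of 0.77 ± 0.162 (SE, edgeR adjusted p = 0.00594). Both were higher in every C/D library than in any Gel/S library, and both kept their call when each of the 6 libraries was left out in turn, with highest adjusted p-values of 0.0217 for mt-Tp and 0.0385 for mt-Tn in edgeR.

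mt-Tc (cysteine), next to mt-Tn on the same strand, had 55.3, 103 and 95.1 CPM in C/D, against 49.1, 62.1 and 62.4 CPM in Gel/S. C/D library 1 lay among the Gel/S libraries, and the log2 value was 0.56 ± 0.189 (SE, edgeR adjusted p = 0.0474). The + strand tRNA mt-Tw (tryptophan) had 20.6, 24.0 and 19.3 CPM in C/D, against 10.6, 17.2 and 13.4 CPM in Gel/S, without overlap, with a log2 value of 0.64 ± 0.174 (SE, edgeR adjusted p = 0.0196). The call of mt-Tc was lost without C/D library 2 or 3 or Gel/S library 1 or 3 (edgeR adjusted p up to 0.199) and, narrowly, when scaled by library totals (0.0504), and that of mt-Tw without C/D library 1 or 2 or Gel/S library 3 (up to 0.0873).

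Other tRNAs did not pass. On the - strand mt-Te (glutamate) had 5.54, 6.96 and 5.77 CPM in C/D, against 7.17, 6.90 and 8.34 CPM in Gel/S, and its log2 value was -0.28 ± 0.169 (SE, edgeR adjusted p = 0.235). It is the tRNA next to mt-Nd6, whose log2 value had the other sign. On the + strand mt-Tl1 (leucine), which follows mt-Rnr2, had 12.2, 26.8 and 21.8 CPM in C/D, against 13.8, 10.9 and 15.9 CPM in Gel/S (log2 0.61 ± 0.232, SE, edgeR adjusted p = 0.0701). mt-Tl2, the other leucine tRNA, had 17.6, 35.4 and 32.3 CPM in C/D, against 25.2, 25.1 and 26.8 CPM in Gel/S, with the C/D libraries on both sides of the Gel/S range. mt-Th (histidine) had 10.5, 12.3 and 10.5 CPM in C/D, against 8.37, 10.4 and 10.4 CPM in Gel/S, and did not overlap by a narrow margin (log2 0.20, edgeR adjusted p = 0.328). By class, 3 of the 7 tested - strand tRNAs rose with a median log2 of 0.64, and 1 of the 11 tested + strand tRNAs with a median log2 of 0.28. That difference between the strands was not tested.

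**Figure D5:**
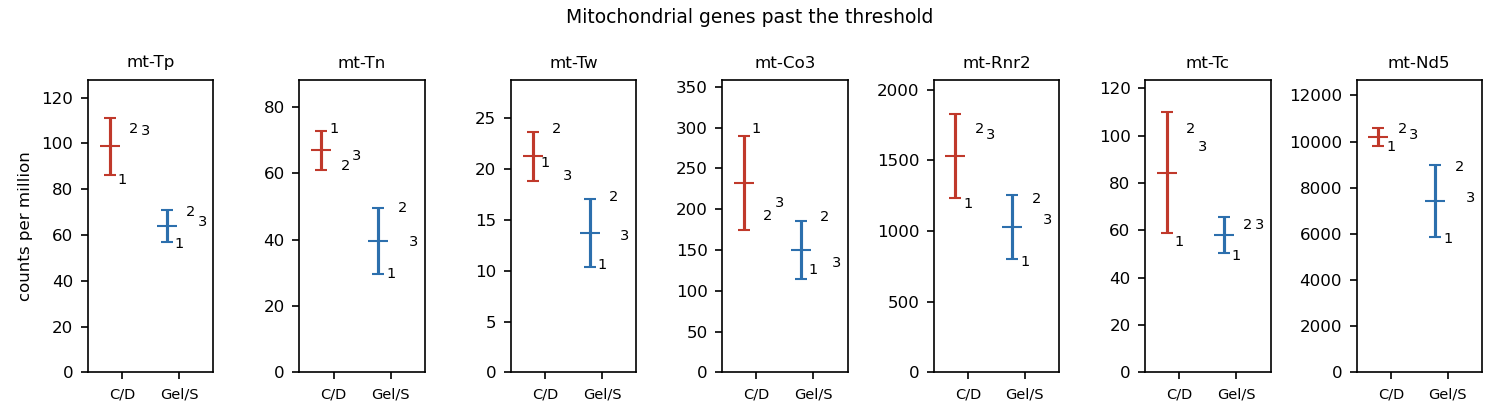
CPM of the 7 mitochondrial genes with an edgeR adjusted p under 0.05, with C/D left of Gel/S. Horizontal marks are means, error bars are SD over 3 libraries and digits mark the replicate. The digits of mt-Tp, mt-Tn, mt-Tw, mt-Co3 and mt-Nd5 do not overlap between the groups, and C/D replicate 1 of mt-Rnr2 and mt-Tc lies within the Gel/S range.

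Among the rRNAs, mt-Rnr2 of the large mitochondrial ribosomal subunit rose. It had 1188, 1724 and 1678 CPM in C/D, against 782, 1228 and 1080 CPM in Gel/S, and C/D library 1 lay under Gel/S library 2. The log2 value was 0.58 ± 0.181 (SE, edgeR adjusted p = 0.0344), and the call was lost without C/D library 2 or 3 or Gel/S library 3 (adjusted p up to 0.132). mt-Rnr1 of the small subunit had 409, 522 and 489 CPM in C/D, against 311, 428 and 407 CPM in Gel/S, and did not pass (log2 0.32 ± 0.138, SE, edgeR adjusted p = 0.104).

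Of the 13 mRNAs, mt-Nd5 and mt-Co3 rose. mt-Nd5, a complex I subunit, had 9786, 10556 and 10276 CPM in C/D, against 5790, 8903 and 7552 CPM in Gel/S, without overlap (log2 0.47 ± 0.159, SE, edgeR adjusted p = 0.0476). Its call was lost without any 1 of the C/D libraries or without Gel/S library 3 (adjusted p up to 0.138). mt-Co3, a cytochrome c oxidase subunit inside the copied stretch, had 299, 192 and 208 CPM in C/D, against 125, 191 and 134 CPM in Gel/S. The groups were apart by a narrow margin, between C/D library 2 and Gel/S library 2, and the log2 value was 0.64 ± 0.188 (SE, edgeR adjusted p = 0.0265). The call was lost without C/D library 1 (adjusted p = 0.131) or Gel/S library 3 (0.0979), in DESeq2 (adjusted p = 0.0953) and in limma on log2(FPKM + 1) (0.0848).

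The most abundant mRNA lay just outside the threshold. mt-Co1 had 49860, 57229 and 55017 CPM in C/D, against 28670, 47867 and 38775 CPM in Gel/S, and all C/D libraries were higher (log2 0.50 ± 0.188, SE, edgeR adjusted p = 0.0680). mt-Nd6 of the - strand had 1800, 2331 and 2181 CPM in C/D, against 1218, 1763 and 1731 CPM in Gel/S, also without overlap (log2 0.43 ± 0.157, SE, edgeR adjusted p = 0.0609). mt-Nd4, a complex I subunit, had 5940, 6268 and 6204 CPM in C/D, against 3689, 5619 and 4829 CPM in Gel/S, with an adjusted p of 0.0799 in edgeR. mt-Nd4l, whose adjusted p of 0.0513 in edgeR was the closest to the threshold, had 15.7, 30.8 and 15.6 CPM in C/D, against 11.9, 15.2 and 11.9 CPM in Gel/S.

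mt-Cytb had 13168, 13603 and 12959 CPM in C/D, against 8361, 13510 and 10814 CPM in Gel/S, where Gel/S library 2 lay inside the C/D range (log2 0.29, edgeR adjusted p = 0.221). mt-Nd1 had 4701, 5723 and 5595 CPM in C/D, against 3550, 5553 and 4562 CPM in Gel/S, and overlapped. mt-Nd2 had 3762, 4515 and 4361 CPM in C/D, against 2757, 4330 and 3511 CPM in Gel/S, and overlapped as well. Neither passed, with log2 values of 0.24 for mt-Nd1 and 0.26 for mt-Nd2.

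In the copied stretch, mt-Atp6 was the mRNA with a negative value, at 189, 195 and 163 CPM in C/D, against 227, 165 and 275 CPM in Gel/S (log2 -0.27 ± 0.148, SE, edgeR adjusted p = 0.193). Its copy Gm10925 had a positive value (log2 0.41, edgeR adjusted p = 0.216), and with the copy's counts added mt-Atp6 was at log2 0.06. mt-Co2 had 259, 210 and 324 CPM in C/D, against 155, 302 and 153 CPM in Gel/S, and overlapped, while its copy Gm28661 had a log2 value of -0.31. With the copies added, mt-Co2 was at log2 0.11, against 0.38 alone, and mt-Nd4l at 0.46, against 0.68 alone, and neither passed. mt-Nd3 had 12.1, 18.1 and 15.9 CPM in C/D, against 10.002, 12.6 and 12.3 CPM in Gel/S (log2 0.42, edgeR adjusted p = 0.0789). Its copy Gm28438 rose (log2 0.42 ± 0.125, SE, edgeR adjusted p = 0.0273). With the copies added to their genes, the count of risen members was again 7, but mt-Co3 lost its call (log2 0.47, edgeR adjusted p = 0.0692) and mt-Nd3 gained one (log2 0.42, edgeR adjusted p = 0.0282). mt-Atp8 had 23, 14 and 9 counts in C/D, against 12, 11 and 8 counts in Gel/S, and overlapped (log2 0.74 ± 0.470, SE, edgeR adjusted p = 0.258).

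The authors' deposited table lists 8 mitochondrial genes as higher in C/D and 0 as lower at an adjusted p under 0.05, of 35 with an adjusted p, after turning the sign of its Gel/S over C/D ratio. Over all genes with an adjusted p, the authors' deposited table has 5.95% higher in C/D and 8.94% lower. There mt-Tm, with few counts, has a smaller unadjusted p than mt-Tq but a larger adjusted p. A Benjamini-Hochberg adjustment over all genes would not give that order. Some genes listed with an adjusted p may therefore not have been tested. The 35 and the genes behind both percentages may be too many, which would make these percentages too low as a background. Of the 8, 4 are among the 7 here, namely mt-Tp, mt-Tn, mt-Tw and mt-Nd5. The authors' deposited table also calls mt-Co1 (log2 0.46, adjusted p = 0.0101), mt-Nd4, mt-Nd6 and mt-Nd4l, and it does not call mt-Co3, mt-Rnr2 and mt-Tc.

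Nuclear genes that copy mitochondrial DNA or make, process and use its RNA were taken from 5 lists, and of 92 listed genes 89 were tested, 7 rose and 2 fell. Risen genes were 7.87% of those tested and fallen ones 2.25%, while 13.1% of all tested genes rose and 13.9% fell. The median log2 over the 89 was -0.02. The count of risen genes was 3 without any 1 of the C/D libraries or without Gel/S library 3, and the count of fallen genes was 1 without any 1 of the C/D libraries. Of 10 tested transcription genes, Mterf1b and Mterf1a rose, close paralogs for a transcription termination factor, whose counts are uncertain because reads can match both. Mterf1b had 6.46, 7.64 and 5.88 FPKM in C/D, against 2.93, 4.67 and 3.76 FPKM in Gel/S (log2 0.86, edgeR adjusted p = 0.00910). Mterf1a had a log2 value of 0.51 (edgeR adjusted p = 0.0403). Tfam, which packages mitochondrial DNA and activates its transcription, had 10.7 ± 0.438 FPKM in C/D and 12.7 ± 1.15 FPKM in Gel/S (SD, n = 3 each) and did not pass (log2 -0.20, edgeR adjusted p = 0.133). Mterf4 did not pass either (log2 0.26, edgeR adjusted p = 0.125). The RNA polymerase Polrmt, named here after its values were seen, had 5.82 ± 0.454 FPKM in C/D and 6.16 ± 0.166 FPKM in Gel/S.

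Of 12 tested replication genes, Ssbp1 rose and Exog fell. Ssbp1, the mitochondrial single-strand DNA-binding protein, had 13.8, 12.8 and 12.8 FPKM in C/D, against 7.13, 9.30 and 7.39 FPKM in Gel/S, without overlap (log2 0.77 ± 0.109, SE, edgeR adjusted p = 0.000788). Exog, a mitochondrial nuclease, had 1.77 ± 0.257 FPKM in C/D and 2.47 ± 0.272 FPKM in Gel/S (SD, n = 3 each, log2 -0.43, edgeR adjusted p = 0.0415). Primpol (log2 0.33) and Lig3 (log2 -0.44) did not pass.

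Of 22 tested genes for RNA processing and stability, Hsd17b10 and Tbrg4 rose. Hsd17b10, a subunit of the mitochondrial RNase P that cuts the 5′ ends of tRNAs, had 67.8, 61.2 and 67.5 FPKM in C/D, against 45.9, 60.5 and 53.4 FPKM in Gel/S (log2 0.34, edgeR adjusted p = 0.0381). Tbrg4, which in human cells acts on the stability of mitochondrial mRNAs, had a log2 value of 0.27 (edgeR adjusted p = 0.0418). Pde12 (log2 -0.25) and Fastkd2 (log2 -0.25) did not pass. Of 23 tested genes for tRNA and rRNA modification, Trmt61b rose and Nsun2 fell. Nsun2, an RNA cytosine methyltransferase that also acts outside mitochondria, had 22.1, 18.9 and 18.9 FPKM in C/D, against 31.8, 30.04 and 28.5 FPKM in Gel/S (log2 -0.55 ± 0.0917, SE, edgeR adjusted p = 0.00180). Trmt61b, an RNA adenosine methyltransferase, had 1.84 ± 0.155 FPKM in C/D and 1.12 ± 0.277 FPKM in Gel/S (SD, n = 3 each, log2 0.76, edgeR adjusted p = 0.0259). Cdk5rap1 (log2 0.32) and Rpusd3 (log2 0.63) did not pass.

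Of 22 tested genes for charging mitochondrial tRNAs, Mars2 rose. Mars2, the methionyl-tRNA synthetase of mitochondria, had 3.94, 4.27 and 4.60 FPKM in C/D, against 2.09, 2.70 and 2.52 FPKM in Gel/S (log2 0.85 ± 0.115, SE, edgeR adjusted p = 0.000631). Its substrate gene mt-Tm had 2 to 15 counts in any library and did not pass. Aars2 (log2 -0.37), Gatc (log2 0.24) and Qrsl1 (log2 0.27) did not pass. Mterf1b, Ssbp1, Nsun2 and Mars2 kept their calls when each of the 6 libraries was left out in turn, and the other 5 lost theirs in most of these fits. Mterf1a and Exog kept the call in 1 of the 6 fits, and Hsd17b10, Tbrg4 and Trmt61b in 2.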

How the data were processed

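RNA-seq of 6 libraries was used, with groups and replicate numbers from the sample titles. The raw counts per gene were made by the authors and deposited without normalization, per the file headers. FPKM values are the authors', and the library total behind them was not given in the sources used here. Signal columns are the authors' group means of scaled counts, per the file headers. The deposited log2 fold changes are the authors' and set Gel/S over C/D. The deposited p-values and adjusted p-values are the authors', from a test not given in the sources used here. The genome build was GRCm38 (mm10) per the submitters' processing notes. The aligner, the counter and how it treats reads with several matches were not given in the sources used here.

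Counts of entries sharing a symbol were summed. Genes with a mean of at least 1 FPKM over the 6 libraries (11707) were tested with the quasi-likelihood test of edgeR 4.0.16 in R 4.3.3, with TMM factors, Benjamini-Hochberg adjustment and a threshold of 0.05. Standard errors were taken as the size of the log2 value divided by the root of F. The fit was also run on simulated counts in which changed genes were drawn at random. These had no shared shift of mitochondrial genes and no outlying library, so that run does not cover such features of the data. Nuclear copies are annotated pseudogenes in GENCODE M21 found with BLAST 2.17.0. Errors are over libraries, and the 3 counts that a count of 0 allows cover counting error only. Alternatives were DESeq2 1.42.0, limma 3.58.1 on log2(FPKM + 1) and log2(FPKM + 0.1), other scalings and filters, a replicate block and leaving out each library.

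Values are given per library for members past the threshold, the mRNAs, both rRNAs and the 4 tRNAs of highest count on each strand. Of each nuclear list, up to 4 tested genes with the smallest adjusted p are named, together with each that passed. The members and lists were chosen with earlier results of these data known.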

Additional observations from a re-analysis of the deposited data

How the results depend on the processing

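The 7 risen and 0 fallen mitochondrial genes became 12 risen with DESeq2, 2 with limma on log2(FPKM + 1), 2 on log2(FPKM + 0.1), 15 of 36 without a filter on low levels (with 1 fallen), and 0 with 2 fallen relative to mitochondrial counts. With edgeR's own filter on low counts (filterByExpr), 6 of 28 tested members rose and 0 fell, and mt-Tc lost its call (edgeR adjusted p = 0.0513). Leaving out 1 library gave 2 (without Gel/S library 3) to 19 risen (without Gel/S library 2) and 0 to 1 fallen. Scaling from nuclear genes gave 7 risen, also without Gel/S library 1, an alternative chosen after seeing the data. In the latter mt-Tc lost its call (log2 0.437, edgeR adjusted p = 0.0647), so the 7 were not the same genes. All genes called in the main fit had smaller log2 values there, such as 0.303 for mt-Nd5, against 0.468. Over all genes, 1531 rose and 1630 fell, against 1020 and 1007 risen in the limma fits, and 886 to 1989 risen and 876 to 2089 fallen with 1 library left out. Of the nuclear genes, 7 rose and 2 fell, against 3 and 1 in both limma fits, 4 fallen without a filter, and 3 to 9 risen and 1 to 3 fallen with 1 library left out. The cause of these changes was not tested.

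Over all tested genes, same-numbered libraries did not deviate together (r of -0.06, -0.06 and 0.05), so the numbers were not taken to pair them, although the mitochondrial share was lowest in library 1 and highest in library 2 of both groups. A replicate block gave 10 risen mitochondrial genes, without mt-Co3 (adjusted p = 0.0504), and 4 risen and 1 fallen nuclear genes of the lists.

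Signs turned relative to mitochondrial counts, where the log2 value was -0.135 for mt-Rnr1, -0.199 for mt-Nd1, -0.174 for mt-Nd2, -0.0171 for mt-Ta, -0.0185 for mt-Co2, -0.0501 for mt-Nd3, -0.0459 for mt-Nd4, -0.255 for mt-Th, -0.237 for mt-Ts2, -0.344 for mt-Tl2, -0.0162 for mt-Nd6 and -0.138 for mt-Cytb. That scale sets the mitochondrial total equal in all libraries, and 16 members were positive and 17 negative on it. With the chromosome 1 copies added, an alternative also chosen after seeing the data, mt-Atp6 turned to 0.0598. With 1 library left out, signs turned for mt-Tv (-0.879 to 0.524), mt-Tg (-1.78 to 0.13), mt-Tr (-3.76 to 0.00813), mt-Ts2 (-0.0312 to 0.514) and mt-Tl2 (-0.0223 to 0.405). All class sums kept their direction with 1 library left out, with log2 ratios of 0.196 to 0.71. For the tRNAs of the copied stretch, at 0 to 5 counts, no difference was detectable at this depth.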
